A study of Mus musculus with 6 samples.

Results

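The NOVA1 and NOVA2 binding sites described here lay in the genes of the Roundabout receptors Robo1 and Robo2 and of their ligands Slit1, Slit2 and Slit3. A cluster of CLIP tags was counted for a gene when at least 1 nt of it fell within the annotated span of that gene (GENCODE vM1, mouse genome mm9) on the gene's own strand. The 5 genes held 27 of the 9988 clusters in the NOVA1 list and 129 of the 36591 clusters in the NOVA2 list. NOVA1 and NOVA2 are close relatives that bind RNA in neurons and control splicing choices there. Their bound RNA had been recovered by HITS-CLIP, in which ultraviolet light crosslinks protein to RNA in tissue and an antibody to NOVA1 or to NOVA2 pulls down the crosslinked fragments for sequencing. All libraries came from the cortex of wild-type CD1 mice at embryonic day 18.5, with 3 for NOVA1 and 3 for NOVA2, and no mutant or treated group entered these lists. The authors had pooled the 3 libraries of a protein and kept clusters with at least 10 tags, so no value per library was at hand and replicate error is unknown for each value below. The minimum is defined by the height of a peak, so the tags given for a cluster may be that height rather than all of its tags. Intervals given below are 95% intervals that cover counting error only.

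Slits are large secreted proteins that bind Robo receptors on growth cones, the moving tips of axons, and turn them away from the source of the ligand. In the embryonic forebrain this signalling steers commissural axons, including those of the corpus callosum, past the midline, and it also guides migrating neurons. NOVA proteins bind the tetranucleotide YCAY, in which Y is C or U. Binding upstream of an alternative exon or within it has been associated with skipping, and binding downstream with inclusion.

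Of 8 markers of cortical neurons, 7 held a NOVA1 cluster and all 8 a NOVA2 cluster, with 2226 and 5981 tags in sum. Among all protein-coding genes, 12.7% held a NOVA1 cluster and 22.7% a NOVA2 cluster. The astrocyte markers held clusters only in Slc1a3 (84 NOVA1 and 127 NOVA2 tags), with Gfap and Aqp4 at 0. The markers of microglia and endothelium, 2 for each, held no cluster of either protein. With those shares over all genes, so few markers without a cluster say little about these cell types. Transcript levels were not measured in these lists, so few clusters in a gene and few transcripts of that gene cannot be told apart. The same holds in whole cortex for few expressing cells and little RNA per cell.

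Short windows are shown from strongly bound sites of the receptors, 5 in introns and 1 in a 3′UTR, as examples of how YCAY was arranged. Some clusters with more tags than the weaker of these are not shown. The sites in Robo1 intron 8 and Robo2 intron 1 also overlapped NOVA1 clusters, of 16 and 20 tags. Each window is the stretch of 30 nt within the cluster that held the most YCAY starts (the first such stretch when several were equal). A window thus shows the motif at its densest, not its level over the cluster. Letters are those of the mm9 genome on the strand of the gene, with T for U, and capitals mark YCAY.
Robo1 intron 2, NOVA2 cluster of 252 tags, chr16:72793341-72793370, plus strand: taTCACCACCACCACCATCACCATCACCAT
Robo1 intron 8, NOVA2 cluster of 159 tags, chr16:72969902-72969931, plus strand: aTCATcaaacattctgcatgtcagctTCAT
Robo1 3′UTR, clusters of 119 NOVA1 and 88 NOVA2 tags, chr16:73045473-73045502, plus strand: tagtgtcagaTCACctttcagaagtgCCAC
Robo2 intron 2, clusters of 265 NOVA2 and 35 NOVA1 tags, chr16:74256836-74256865, minus strand: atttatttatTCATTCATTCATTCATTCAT
Robo2 intron 1, NOVA2 cluster of 239 tags, chr16:74406139-74406168, minus strand: TCATttCCACCACtcttcccaatcttTCAT
Robo2 intron 6, NOVA2 cluster of 97 tags, chr16:73986747-73986776, minus strand: cctctctgaacTCACCACatTCATCATCAT

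The windows of Robo1 intron 2 and Robo2 intron 2 held YCAY as tandem copies, 9 and 5 starts in 30 nt. Their whole NOVA2 clusters held 26 YCAY in 532 nt and 19 in 410 nt. The 3′UTR window held 2 starts that stood apart, and so did the window of Robo1 intron 8. For the ligands, windows from 4 clusters are shown, placed by the same rule. These clusters held 15 to 20 tags, apart from that of Slit3 with 102.
Slit1 intron 8, NOVA2 cluster of 15 tags, chr19:41725078-41725107, minus strand: acCCACaacaacTCACtaatgTCATtTCAC
Slit1 3′UTR, NOVA1 cluster of 20 tags, chr19:41675911-41675940, minus strand: ctccCCACCATtctgctgtagcagctTCAT
Slit2 intron 11, NOVA2 cluster of 18 tags, chr5:48607925-48607954, plus strand: ctTCATtatccTCATctaatttaTCATCAT
Slit3 intron 4, NOVA2 cluster of 102 tags, chr11:35104402-35104431, plus strand: atTCACCCACTCATTCATTCATTCATTCAT

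The first comparison asked how binding was distributed over the 5 genes. Most of it fell on the receptors. Robo1 and Robo2 together held 107 NOVA2 clusters with 4402 tags and 26 NOVA1 clusters with 650 tags. The 3 Slit genes held 22 NOVA2 clusters with 469 tags and a single NOVA1 cluster with 20 tags, in Slit1. All 5 genes thus held a NOVA2 cluster, beside 66.6% of the 2401 protein-coding genes that span at least 100 kb. A NOVA1 cluster was found in 3 of the 5, beside 40.9% of those genes.

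Robo2 (ENSMUSG00000052516, chr16:73892551-74412070, minus strand) was the most densely bound by NOVA2. Its 75 NOVA2 clusters (exact Poisson interval 59.0 to 94.0) came to 14.4 per 100 kb of its span (11.4 to 18.1), a density that ranked 69 among the 2401 long genes. The median of those genes was 1.26 per 100 kb. Robo1 (ENSMUSG00000022883, chr16:72663394-73046340, plus strand), its neighbour on the same chromosome, held 32 NOVA2 clusters, or 8.36 per 100 kb (5.72 to 11.8), and ranked 276. The intervals of both receptors overlapped slightly, and both lay in the upper part of the distribution, with 97.1% and 88.5% of the long genes below them. For NOVA1 the receptors were not separated, with 3.13 clusters per 100 kb in Robo1 (1.62 to 5.47, rank 155) and 2.69 in Robo2 (1.47 to 4.52, rank 193).

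The ligands lay nearer to the middle. Slit1 (ENSMUSG00000025020, chr19:41674747-41818155, minus strand) held 5 NOVA2 clusters, or 3.49 per 100 kb (1.13 to 8.14). Slit2 (ENSMUSG00000031558, chr5:48374394-48697521, plus strand) held 7, or 2.17 per 100 kb (0.871 to 4.46). Slit3 (ENSMUSG00000056427, chr11:34934726-35522009, plus strand), the longest of the 5 genes at 587 kb, held 10, or 1.70 per 100 kb (0.817 to 3.13). These intervals overlapped one another, so the order within the ligands was not resolved. That of Slit1 also overlapped the interval of Robo1, while those of Slit2 and Slit3 lay below it.

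The difference in strength went the same way as that in number. NOVA2 clusters of the receptors had a median of 25 tags (quartiles 14 and 46.5) and reached 265. Those of the ligands had a median of 14.5 (quartiles 11.3 and 18) and reached 102. In the whole NOVA2 list the median was 18. With both lists limited to clusters of 20 or more tags, 19 NOVA2 clusters were left in Robo1, 42 in Robo2, 0 in Slit1, 1 in Slit2 and 3 in Slit3.

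**Figure D1:**
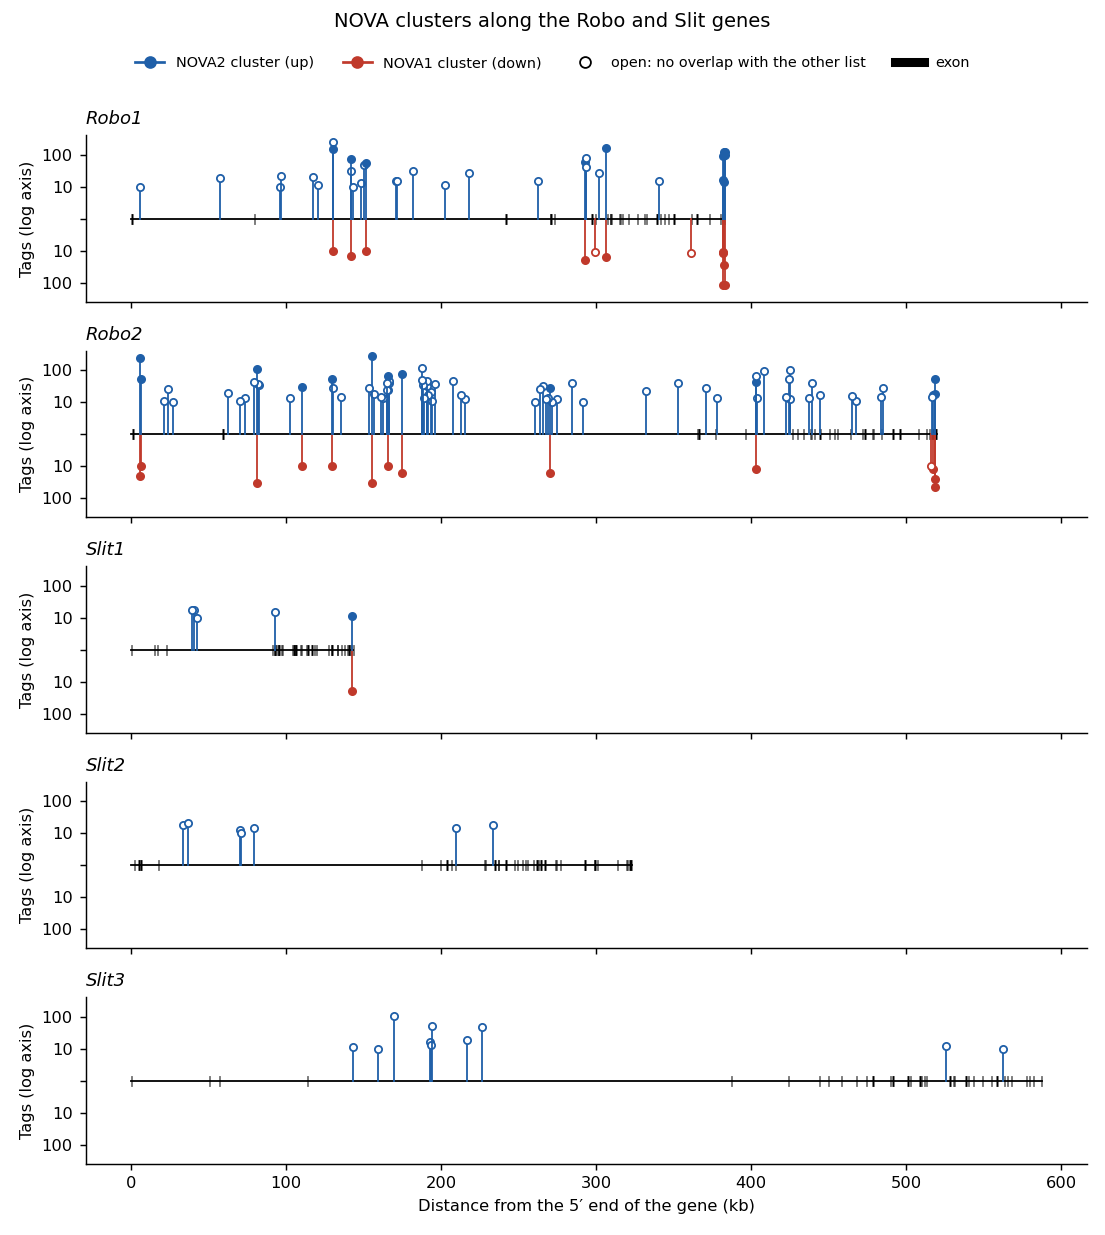
NOVA2 clusters (blue, upward) and NOVA1 clusters (red, downward) along each gene, by distance from its 5′ end in kb; the height is the pooled tag count on a log axis whose baseline is 1 tag, filled points overlap a cluster of the other list, open points do not, and black blocks are exons of the reference transcript. Robo2 carried clusters along most of its length, Robo1 in its second intron and at its 3′ end, and the 3 Slit genes mainly in intron 4.

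The next comparison asked where in each gene the clusters lay. Introns held 116 of the 129 NOVA2 clusters (89.9%, Wilson interval 83.5 to 94.0), beside 74.6% of the whole NOVA2 list. They held 15 of the 27 NOVA1 clusters (55.6%, 37.3 to 72.4), beside 40.3% of the whole NOVA1 list. The 3′UTR class took 10 of the 27 NOVA1 clusters (37.0%, 21.5 to 55.8), beside 37.7% of the whole NOVA1 list. It took 11 of the 129 NOVA2 clusters (8.53%, 4.83 to 14.6), beside 12.1% of the whole NOVA2 list. The NOVA2 intron share lay above that of the list, whereas the NOVA1 interval and both 3′UTR intervals included the share of their list. The lists also hold clusters in neither introns nor exons, 4058 of 36591 for NOVA2 and 1161 of 9988 for NOVA1. Counting only clusters within gene spans left 1 such NOVA2 cluster and 0 such NOVA1 clusters in the 5 genes. The higher NOVA2 intron share was therefore not separated from the counting rule.

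Within the introns, the clusters gathered in a single one. In Robo1 and Robo2 it was intron 2, which lies between the exons numbered 2 and 3 in the reference transcript, and in Slit1, Slit2 and Slit3 it was intron 4. This was the longest intron in each of the genes. It held 17 of 24 NOVA2 intron clusters of Robo1, 49 of 71 of Robo2, 3 of 4 of Slit1, 5 of 7 of Slit2 and 8 of 10 of Slit3. The sum was 82 of 116 (70.7%, 61.9 to 78.2), beside 42.3% of all NOVA2 intron clusters that lay in the longest intron of their gene.

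A longer intron has more room for clusters, so these shares were set beside its length. The longest intron made up 43.4% of the intron sequence of Robo1, 59.9% of Robo2, 49.6% of Slit1, 54.1% of Slit2 and 47.0% of Slit3. In each gene the share of clusters was above the share of sequence. For Robo1 (70.8%, 50.8 to 85.1) and Slit3 (80%, 49.0 to 94.3) the interval lay above the share of sequence, whereas for Robo2 (69.0%, 57.5 to 78.6), Slit1 and Slit2 it included it. Expressed as density, Robo1 held 10.5 NOVA2 clusters per 100 kb in intron 2 and 3.31 in its other introns. Slit3 held 2.93 in intron 4 and 0.649 elsewhere. In the whole list the longest intron made up a mean of 36.2% of the intron sequence of the host genes.

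**Figure D2:**
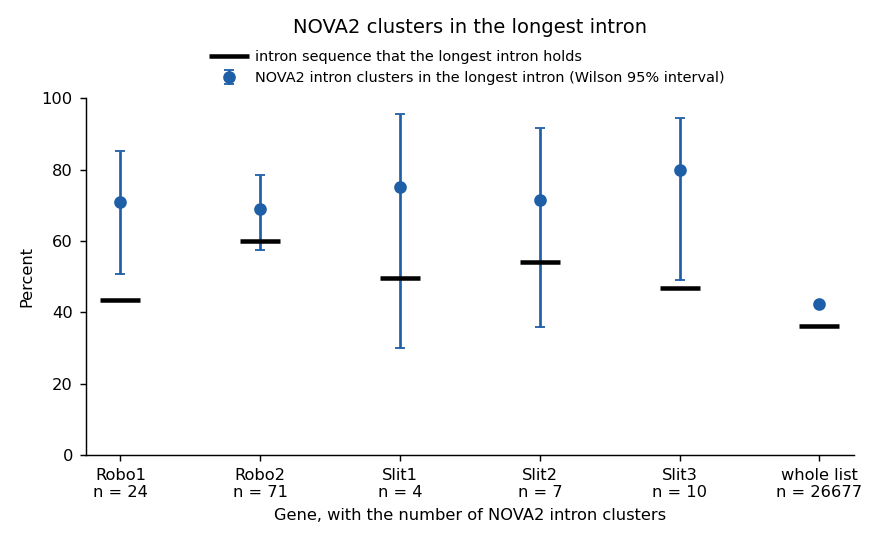
Percent of NOVA2 intron clusters that lay in the longest intron of their gene (blue points, with Wilson 95% intervals) and percent of the intron sequence that this intron made up (black bars), for each gene and for all NOVA2 intron clusters in genes with several introns. The blue point was above the black bar in all 5 genes, from 69.0% in Robo2 to 80% in Slit3.

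The densest stretch was in Robo2. Of its 49 clusters in intron 2, 22 lay within 42.4 kb (chr16:74216015-74258428), between 154 and 196 kb from the 5′ end of the gene, and summed to 1015 tags. Among the long genes, 38 had more NOVA2 clusters in a window of 50 kb, and the highest number was 52. In Robo1 the densest stretch held 10 clusters within 34.0 kb of intron 2, with 654 tags. In Slit2 and Slit3 it held 5 clusters each.

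Most clusters were far from any exon. The median distance of the 116 NOVA2 intron clusters from the nearest exon was 50.6 kb (order-statistic interval 22.6 to 70.0), beside 10.7 kb for all NOVA2 intron clusters and 18.0 kb for those in genes of at least 100 kb. The lowest distance was 46 nt and the highest was 152 kb. Only 7 of the 116 (6.03%, 2.95 to 11.9) lay within 500 nt of an exon, beside 9.69% of the list and 5.77% of the clusters in genes of at least 100 kb. Of the 15 NOVA1 intron clusters, 2 lay as close (13.3%, 3.74 to 37.9), both in Robo1. This stood beside 11.4% of all NOVA1 intron clusters and 7.36% of those in genes of at least 100 kb.

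These near-exon clusters are the ones whose position can be set beside an exon. In Robo1, a NOVA2 cluster of 57 tags (chr16:72956249-72956433) ended 86 nt upstream of an exon that closes a short transcript, and a NOVA1 cluster of 20 tags overlapped it. The other was the NOVA2 cluster of 159 tags in intron 8 (chr16:72969830-72970030), 381 nt upstream of exon 9, which overlapped a NOVA1 cluster of 16 tags. In Robo2, all but 1 of the near-exon clusters lay downstream of the exon. These were clusters of 14 tags at 61 nt from exon 22, 38 tags at 215 nt from exon 11 and 16 tags at 345 nt from exon 13, none of them with a NOVA1 overlap. In Slit1, a NOVA2 cluster of 15 tags lay 46 nt downstream of exon 8. Slit2 and Slit3 had none, and their closest clusters were 519 nt downstream of exon 9 of Slit2 (14 tags), 708 nt upstream of its exon 12 (18 tags) and 534 nt upstream of exon 30 of Slit3 (10 tags).

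Exons that some annotated protein-coding transcripts carry and others skip were then examined. There were 2 in Robo1, 3 in Robo2, 1 in Slit1, 4 in Slit2 and none in Slit3. A NOVA2 cluster lay within 500 nt of 2 of the 10 (20%, 5.67 to 51.0), 1 in each receptor, beside 6.21% of the 8035 such exons in protein-coding genes of at least 100 kb. With so few exons the interval included that share. Of these 2, the Robo1 exon is 1970 nt long and is the last exon of a short transcript, so no further exon follows it there.

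The Robo2 exon was a microexon of 12 nt (chr16:73986178-73986189) between exons 6 and 7. It is shown with 9 nt of intron on either side, on the minus strand, and here the capitals mark the exon.
Robo2 microexon, chr16:73986169-73986198, minus strand: aatgtgcagTATTTCAAGTCTgtctctgtc

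The nearest NOVA2 cluster lay 418 nt upstream of this microexon and held 97 tags (chr16:73986608-73986929), with 12 YCAY in its 322 nt. Further NOVA2 clusters of 12 and 52 tags followed at 948 and 1161 nt upstream and one of 14 tags at 3113 nt. None was listed downstream of the microexon within intron 6. None of these 4 overlapped a NOVA1 cluster, and the nearest NOVA1 cluster was 22.6 kb upstream, with 12 tags. Within 500 nt the motif was at a similar level on either side of the microexon, with 7 YCAY before it and 8 after it. That stretch took in only the near end of the cluster of 97 tags and none of those further upstream. Intron 6 held 8 NOVA2 clusters in all, with 386 tags in 30.2 kb, or 26.5 clusters per 100 kb.

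The Robo1 exon (chr16:72956520-72958489, 1970 nt) follows exon 6 and ends a transcript that lacks exons 7 to 29. It held a NOVA2 cluster of 77 tags across its 5′ boundary (chr16:72956476-72956680) and one of 42 tags further in (chr16:72956991-72957062), and neither overlapped a NOVA1 cluster. The clusters of 57 NOVA2 and 20 NOVA1 tags named above lay just upstream of it, at 86 and 81 nt. The 500 nt before this exon, which include those clusters, held 16 YCAY, or 32.2 per 1000 positions, and the 500 nt after it held 1, or 2.01 per 1000.

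Other skipped exons had no listed cluster close by. The lists keep only clusters of at least 10 tags, so weaker binding near these exons would not appear. Exon 21 of Robo2 (126 nt) was 5.08 kb from the nearest NOVA2 cluster, although the 500 nt before it held 20 YCAY. Exon 26 of Robo2 (273 nt) was 3.31 kb away from one. An exon of 14 nt after exon 2 of Robo1 and exon 4 of Slit1 (72 nt) were 16.8 and 16.9 kb from one. In Slit2 the 4 skipped exons of 12, 24, 33 and 27 nt were 1.84, 4.22, 33.5 and 46.9 kb from the nearest NOVA2 cluster, in the order in which they are transcribed. No NOVA2 cluster was listed between the reference exons that flank any of the 4.

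**Figure D3:**
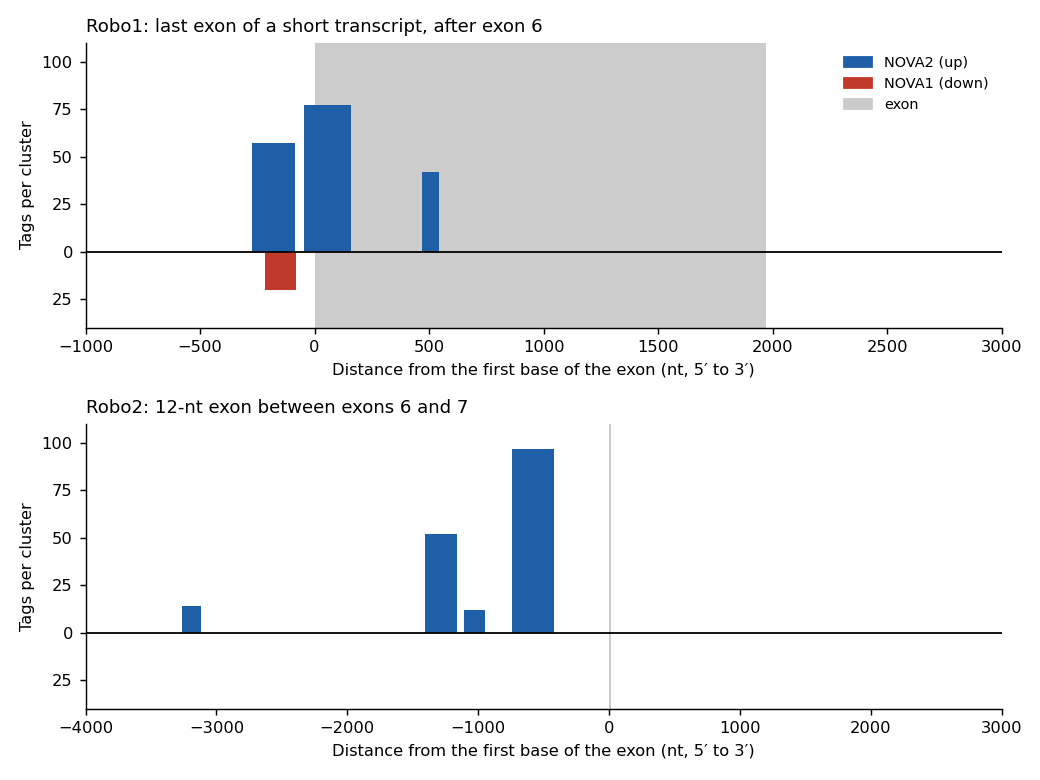
Clusters around the last exon of the short Robo1 transcript (top) and around the 12-nt exon of Robo2 (bottom), by distance in nt from the first base of the exon (grey) in the direction of transcription; bar heights are pooled tags per cluster, NOVA2 upward and NOVA1 downward. In Robo1 clusters stood before and over the exon, and in Robo2 4 NOVA2 clusters of 12 to 97 tags stood before the exon with no NOVA1 cluster.

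The next comparison asked how far both proteins occupied the same sites. Of the 27 NOVA1 clusters, 23 overlapped a NOVA2 cluster (85.2%, 67.5 to 94.1), beside 80.1% of the NOVA1 list. Of the 129 NOVA2 clusters, 26 overlapped a NOVA1 cluster (20.2%, 14.1 to 27.9), beside 22.1% of the NOVA2 list. Both shares were near those of the lists. The NOVA2 share was 34.4% in Robo1 (11 of 32), 18.7% in Robo2 (14 of 75) and 20% in Slit1 (1 of 5). Slit2 and Slit3 held no NOVA1 cluster, so their 7 and 10 NOVA2 clusters could not overlap one.

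The overlap depended on the part of the transcript. All 15 NOVA1 clusters in introns overlapped a NOVA2 cluster (95.5% in the list), and 8 of the 12 in exons did (67.3% in the list). In the other direction, 16 of 116 NOVA2 intron clusters overlapped NOVA1 (14.1% in the list) and 9 of 12 NOVA2 exon clusters did (63.0% in the list). The 4 NOVA1 clusters without NOVA2 overlap were thus all in exons. They were weak, at 10 to 12 tags, and lay in coding exons 8 and 25 of Robo1 and in the 3′UTRs of Robo1 and Robo2.

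NOVA2 clusters that overlapped a NOVA1 cluster held more tags, with a median of 55.5 (quartiles 28.3 and 104) in the 26 overlapping clusters and 17 (quartiles 13 and 33) in the other 103. Both lists start at 10 tags and the NOVA1 list holds fewer tags, so the minimum alone can give such a difference, which was not tested. There were exceptions among the strongest. The highest NOVA2 cluster of Robo1 (252 tags, chr16:72793115-72793646) had no NOVA1 overlap, although the cluster next to it (144 tags, chr16:72793679-72793995) overlapped NOVA1 with 10 tags. In Robo2 the cluster of 112 tags at chr16:74224061-74224568 had none, and in Slit3 neither had the cluster of 102 tags.

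Where a NOVA1 cluster overlapped a single NOVA2 cluster and the reverse held too, the tags of both could be compared. There were 20 such pairs, 14 in introns and 6 in 3′UTRs. In introns NOVA2 had more tags in all 14, with a median log2 ratio of NOVA2 to NOVA1 of 2.35 (order-statistic interval 1.54 to 3.31). In 3′UTRs NOVA2 had more in 3 and NOVA1 in 3, with a median of -0.14 (-0.86 to 0.50). Over all such pairs of the lists the medians were 2.04 in 3452 intron pairs and 0.40 in 2146 3′UTR pairs. The whole NOVA2 list had 4.30 times as many tags as the NOVA1 list, a log2 ratio of 2.10, so the intron pairs lay near that ratio and the 3′UTR pairs below it. The one-to-one rule left out NOVA1 clusters that overlapped 2 NOVA2 clusters. In the Robo1 3′UTR these were 29 NOVA1 tags beside 122 and 14 NOVA2 tags, and 115 beside 99 and 122. In Robo2 intron 2 it was 10 beside 23 and 63. At each of these sites a NOVA2 cluster held more tags than the NOVA1 cluster.

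The strongest of the one-to-one pairs was in Robo2 intron 2, with 265 NOVA2 tags and 35 NOVA1 tags, of which NOVA1 made up 11.7% (exact binomial interval 8.26 to 15.9). It was followed by Robo2 intron 1, with 239 and 20 tags (7.72%, 4.78 to 11.7), a site 5.94 kb from the 5′ end of the gene. The third in order was in the 3′UTR of Robo1, where the NOVA1 cluster had 119 tags and the NOVA2 cluster 88, so that NOVA1 made up 57.5% (50.4 to 64.3). The next were Robo1 intron 8, with 159 NOVA2 and 16 NOVA1 tags, and Robo1 intron 2, with 144 and 10. Among these 5 pairs NOVA1 held the larger count in the 3′UTR pair alone.

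**Figure D4:**
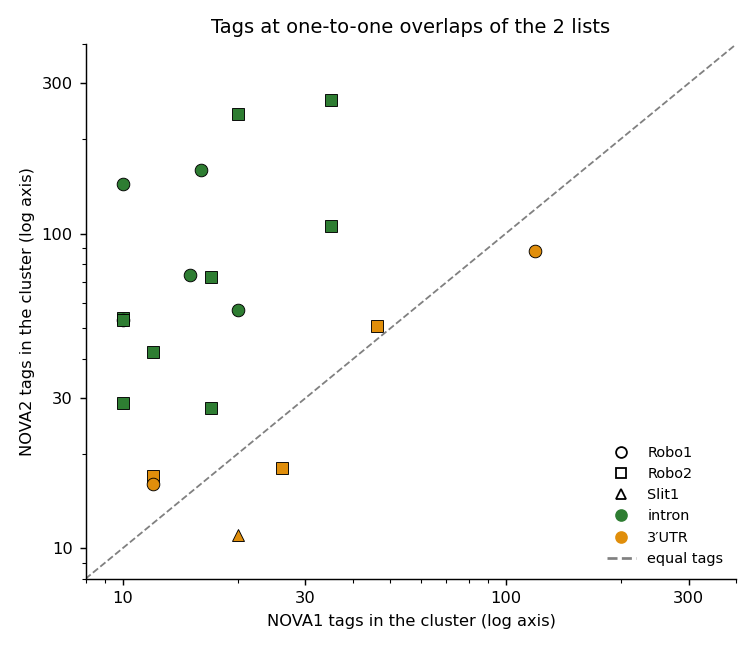
Pooled tags of the NOVA1 cluster (horizontal) and of the NOVA2 cluster (vertical) at the 20 sites where a single cluster of each list overlapped, on log axes; shapes give the gene, colours the part of the transcript, and the dashed line equal tags. The 14 intron sites lay above the line, and the 6 sites in 3′UTRs lay close to it on either side (a Robo1 and a Robo2 site at 10 and 53 tags coincide).

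The 3′UTRs held most of the NOVA1 tags of Robo1. Its 5 NOVA1 clusters there held 286 of 380 tags (75.3%), beside 22.9% of the NOVA2 tags of the gene in the same class and 44.3% of the tags of the whole NOVA1 list. They lay in exon 29 and counted 11, 12, 119, 29 and 115 tags in the order of transcription. The last, at chr16:73046094-73046545, ran 205 nt past the annotated end of the gene. It overlapped NOVA2 clusters of 99 and 122 tags, the latter of which was classed as downstream of the gene because only its first part lay in the exon. The NOVA2 share of 22.9% thus leaves out those 122 tags. It also takes in 42 tags in the last exon of the short Robo1 transcript, so the shares of both proteins cover unlike parts. In Robo2 the 4 NOVA1 clusters of the 3′UTR, in exon 28, held 94 of 270 tags (34.8%), and NOVA2 had 100 of 2739 tags there (3.65%). These 4 clusters counted 10, 12, 46 and 26 tags in the order of transcription, the third at chr16:73893659-73893938 being the highest NOVA1 cluster of the gene. The lists as a whole had 44.3% of NOVA1 tags and 15.9% of NOVA2 tags in 3′UTRs, so the order of the proteins was that of the lists, and the NOVA1 share of Robo2 was below that of its list.

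In Slit1 the single site of overlap had 20 NOVA1 tags and 11 NOVA2 tags (chr19:41675835-41675947 for NOVA1). It lay in the 3′UTR of transcript Slit1-002 and in an intron of the reference transcript. The highest NOVA2 clusters of Slit1 were a pair of 17 tags each in intron 4 (chr19:41777636-41777808 and chr19:41778576-41778656), apart from any NOVA1 cluster. In Slit2 they were clusters of 21 and 18 tags in intron 4 (chr5:48410826-48410928 and chr5:48407593-48407694) and the one of 18 tags in intron 11. In Slit3, clusters of 51 and 48 tags in intron 4 (chr11:35128634-35128726 and chr11:35161045-35161140) came after that of 102. No NOVA1 cluster was listed in Slit2 or Slit3, and no cluster of either protein was listed in the 3′UTRs of Slit2 and Slit3.

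The motif was then counted in the clusters as CA with C or U on either side of it, on the strand of the gene alone and with overlapping copies counted separately. All 129 NOVA2 clusters and all 27 NOVA1 clusters held at least 1 YCAY, as did 99.3% and 98.1% of the clusters in the lists. The NOVA2 clusters held 40.2 YCAY starts per 1000 positions, and their flanks, 200 to 500 nt from either end, held 17.4, a fold of 2.31 (2.11 to 2.52). For the NOVA1 clusters the fold was 2.09 (1.72 to 2.55). In the lists the folds were 2.29 and 2.02. UCAU was the most frequent form, with 43.7% of the YCAY in NOVA2 clusters of these genes and 44.4% in NOVA1 clusters. In the whole lists it made up 43.9% for NOVA2 and 41.7% for NOVA1.

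The NOVA2 clusters of the ligand genes, although few and low in tags, were dense in the motif. The 22 clusters held 59.2 YCAY per 1000 positions, 3.91-fold over their flanks (3.13 to 4.88). The value rested mainly on Slit1 (69.8) and Slit3 (63.6), with Slit2 at 47.2 and the whole NOVA2 list at 42.4. The 107 clusters of the receptors held 37.6, 2.10-fold over their flanks (1.90 to 2.32). Among clusters under 20 tags the densities were 60.3 in 18 clusters of the ligands and 34.1 in 46 clusters of the receptors, beside 42.1 in all such clusters of the list. The ligand clusters of this class were also narrower, with a median width of 97.5 nt against 112 nt. Over all clusters, flanks held 15.2 per 1000 in the ligands and 17.9 in the receptors, and the introns of the 5 genes outside all clusters held 15.98 to 18.3.

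**Figure D5:**
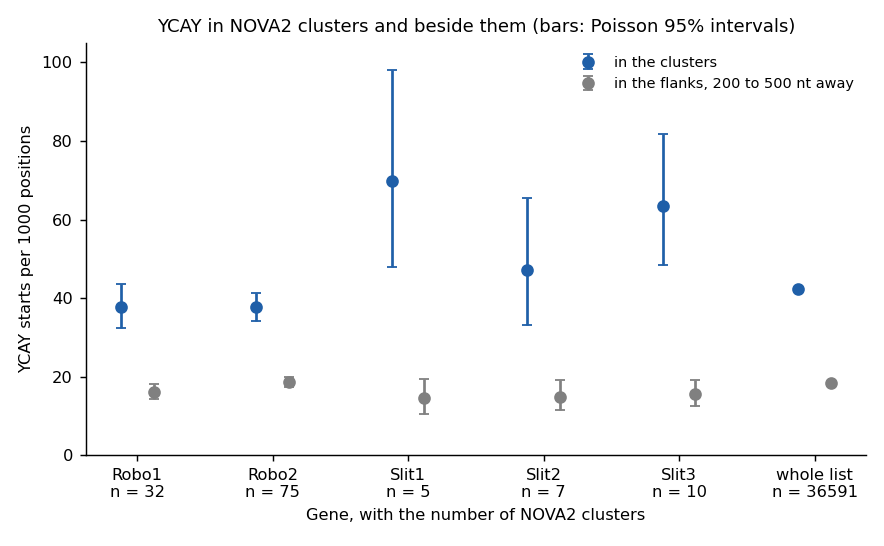
YCAY starts per 1000 positions in the NOVA2 clusters of each gene (blue) and in their flanks 200 to 500 nt away (grey), with exact Poisson 95% intervals, beside all NOVA2 clusters. Clusters lay above their flanks in each gene, and those of Slit1 and Slit3 had higher densities (69.8 and 63.6) than those of Robo1 and Robo2 (both 37.6), with Slit2 between them at 47.2.

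Across the 129 NOVA2 clusters, tag counts had a Spearman correlation of 0.40 with the number of YCAY and of -0.02 with their density. The correlation of tags with cluster width was 0.57. The clusters shared genes and libraries and are not independent, so these values are descriptions.

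Other genes of the pathway were taken as a list of 35. A NOVA2 cluster was found in 22 of them (62.9%, 46.3 to 76.8), beside 22.7% of all protein-coding genes, and a NOVA1 cluster in 15 (42.9%, 28.0 to 59.1), beside 12.7%. The list was drawn up with results of these data known and holds several long genes, which have more room for clusters. The remaining receptors, Robo3 and Robo4, are short genes of 17.5 and 12.1 kb and held no cluster of either protein.

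Downstream of the receptors, GTPase activating proteins lower the activity of small GTPases at the growth cone. Of the 5 in the list, Srgap1, Srgap2 and Srgap3 held clusters of both proteins, and Arhgap39 and Myo9b held none. Of the 3 GTPases, Cdc42 held 5 NOVA2 clusters with 201 tags and 1 NOVA1 cluster with 30, and Rac1 and Rhoa held none. Srgap2 held 26 NOVA2 clusters with 808 tags and 3 NOVA1 clusters with 44. Srgap3 held 15 with 363 tags and 4 with 49, and Srgap1 held 13 with 269 tags and 4 with 71. Enah, a regulator of actin filaments, held 13 NOVA2 clusters with 694 tags and 6 NOVA1 clusters with 112.

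Nell2, a secreted ligand of Robo3, had the most NOVA2 tags of the list (46 clusters, 1966 tags), with 6 NOVA1 clusters of 125 tags. Ndfip1, an adaptor of ubiquitin ligases, had the most NOVA1 tags, in 1 cluster of 720 that overlapped a NOVA2 cluster of 751. The syndecan Sdc3, a heparan sulfate proteoglycan, held 10 NOVA1 clusters with 315 tags and 4 NOVA2 clusters with 146 tags. Of its 10 NOVA1 clusters, 9 were in the 3′UTR.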

How the data were processed

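HITS-CLIP had been performed with antibodies to NOVA1 and NOVA2 on E18.5 cortex of wild-type CD1 mice, in 3 libraries for each. Reads were aligned by the authors to mm9 with Novoalign (named in the submitters' processing notes, version not given in the sources used here), PCR duplicates were removed, and clusters supported by several libraries were kept. The deposited tag counts of at least 10 per cluster are whole numbers pooled over libraries and not scaled to depth. The authors describe this minimum as a peak height and the lists do not label the column, so sums of tags may be sums of heights. The depth of single libraries is not analysed here. The lists had 0 columns of single samples.

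Positions are given from 1 in mm9, and 0 clusters ended past a chromosome end of that build. Clusters were classed by GENCODE vM1 according to where the majority of their bases fell, coding exons coming first, then UTRs, noncoding exons, introns and the 10 kb next to a gene. Distances are to exons of protein-coding genes, retained introns left out. Exons are numbered by the transcript named -001 of each gene. Exact Poisson, Wilson and exact binomial intervals at 95% cover counting error only, and motif folds carry log-normal intervals from the counts. No p-value was computed, since no replicate values were there to test. Clusters are not replicates. Functions were tested on simulated data. Python 3.11.15, NumPy 2.4.6, SciPy 1.17.1, pysam 0.24.0 and Matplotlib 3.10.9 were used.

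The genes, the pathway list and the marker lists were chosen with earlier results of these data known. Named clusters were the 3 of highest tag count per gene and list, those in exons or within 500 nt of one, the 5 one-to-one overlapping pairs of most tags, and those nearest to skipped exons. Pathway genes named were the 5 of most tags per list, Srgap1 to Srgap3, Robo3 and Robo4, and the other GTPase activating proteins and GTPases were added after their values were seen. Not each cluster that the rule names is described. The longest intron, the densest windows of 50 kb and comparisons between receptors and ligands were chosen after the values were seen. Alternatives were other tag minimums, overlap rules, gene limits, annotation rules and flanks. All 35 pathway genes and all markers were matched in the annotation, Map2 through an older symbol. The result of a further marker list is not reported here.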

Additional observations from a re-analysis of the deposited data

How the results depend on the processing

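Of 67 alternative values computed for 17 results, 46 were inside the 95% interval of the value given above (counts within 1.5 times), and the rest follow. At 20 or more tags in both lists, 10 NOVA1 and 65 NOVA2 clusters remained in the 5 genes, 13.8% of the NOVA2 clusters overlapped NOVA1, and NOVA2 clusters per 100 kb were 4.96 in Robo1, 8.08 in Robo2, 0 in Slit1, 0.309 in Slit2 and 0.511 in Slit3. When only the 10244 NOVA2 clusters of at least 31 tags were used (as many as the NOVA1 list, ties kept), 46 NOVA2 clusters remained, 63.0% of NOVA1 clusters overlapped NOVA2 and 39.1% of NOVA2 clusters overlapped NOVA1, the median distance from an exon was 70.2 kb, the YCAY fold was 2.08, and clusters per 100 kb were 3.39 in Robo1, 5.77 in Robo2, 0 in Slit1 and Slit2 and 0.511 in Slit3. Within 200 nt of an exon lay 2.59% of the NOVA2 intron clusters and within 1000 nt 12.1%, as a shorter or longer limit must give. With tags divided by the sum of tags of their list, the median log2 ratio of NOVA2 to NOVA1 at all 20 pairs was -0.40 in place of 1.70, a sign that the scaling itself sets. The share in the longest intron, whose alternatives were chosen after seeing the data, ranged from 70.6% with clusters 50 nt or less apart merged to 75.9% at 20 or more tags, and was 73.3% without Robo2. Counts of clusters depend on the tag minimum and on depth, which differed between the lists and could not be equalised by library. Leaving out a library was not possible with pooled counts. No paired analysis was possible because the lists carry no values per replicate.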

Other observations

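No cluster of either protein lay on the opposite strand within the span of any of the 5 genes. Within 10 kb downstream of their annotated ends, a single further cluster was listed, a NOVA2 cluster of 11 tags that began 179 nt past the end of Robo2. Upstream of the 5 genes, within 10 kb, there was none.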
